A study of Mus musculus with 2 samples.

Results

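Internal alternative promoters are places inside a protein-coding gene where the annotation puts the start of a shorter transcript, well downstream of the gene's own 5' end. Here a start qualified when it belonged to a protein-coding transcript of GENCODE M21, lay at least 5 kb downstream of the 5' end of its gene and was over 1 kb from the 5' end of any other gene. An internal promoter region was a merged DNase-seq peak, with a peak in each replicate, that overlapped 500 bp either side of such a start. There were 2286 such regions in 1467 genes, out of 158036 merged regions in all, of which 104208 had a peak in both replicates. DNase-seq cuts chromatin with DNase I and reads the cut ends, so that a peak marks DNA that was open to the enzyme. A footprint marks a short stretch with fewer cuts than the bases beside it. All values are from 1 group with 2 biological replicates. It is heart from 14-day-old males of the hybrid B6CASTF1/J, the F1 of C57BL/6J and CAST/EiJ parents, and the label of replicate 1 names 3 males. Signal is the peak height scaled for read depth by the authors, and the text gives replicate 1 before replicate 2.

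A promoter is the stretch of DNA where RNA polymerase II is loaded and transcription begins. Many genes hold more than 1 of them, and a transcript that begins further inside the gene can carry a different first exon, lack the first protein domains or answer to other factors, so that tissues can draw different products from the same gene. In heart and muscle the tropomyosins, dystrophin, acetyl-CoA carboxylases and phosphodiesterases are textbook cases. An open internal start shows that the DNA there was accessible, and transcripts were not measured here. In bulk tissue a lower signal from fewer open cells cannot be told apart from less open DNA in each cell.

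The genomic sequence just upstream of 8 internal starts is printed because these regions, chosen after their values were seen, were far stronger than the 5' end of the same gene or belonged to heart genes with known internal promoters. Each run is 150 bases from mm10 (RefSeq GRCm38), 5' to 3' on the gene's strand, and ends at the base before the annotated start. Capitals mark bases that lay inside a footprint in both replicates.
Tpm1, chr9:67043963-67044112, minus strand: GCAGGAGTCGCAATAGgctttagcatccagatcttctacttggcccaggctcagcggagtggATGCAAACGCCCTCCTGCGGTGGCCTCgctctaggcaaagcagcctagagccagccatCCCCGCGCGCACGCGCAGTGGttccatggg
Palld, chr8:61591143-61591292, minus strand: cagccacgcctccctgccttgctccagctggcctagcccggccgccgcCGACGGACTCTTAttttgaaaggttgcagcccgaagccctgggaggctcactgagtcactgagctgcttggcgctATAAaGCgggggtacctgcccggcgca
Dmd, chrX:85048263-85048412, plus strand: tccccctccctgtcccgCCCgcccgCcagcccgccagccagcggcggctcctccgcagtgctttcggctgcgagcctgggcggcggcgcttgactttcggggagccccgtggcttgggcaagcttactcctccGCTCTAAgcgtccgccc
Gata4, chr14:63245272-63245421, minus strand: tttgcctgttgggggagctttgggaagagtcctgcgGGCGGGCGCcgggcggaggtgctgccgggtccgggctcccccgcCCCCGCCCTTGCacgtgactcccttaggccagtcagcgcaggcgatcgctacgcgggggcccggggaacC
Ets1, chr9:32695872-32696021, plus strand: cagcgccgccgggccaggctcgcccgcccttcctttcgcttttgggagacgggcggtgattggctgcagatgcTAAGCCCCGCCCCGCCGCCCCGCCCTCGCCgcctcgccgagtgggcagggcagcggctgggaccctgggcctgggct
Acacb, chr5:114175756-114175905, plus strand: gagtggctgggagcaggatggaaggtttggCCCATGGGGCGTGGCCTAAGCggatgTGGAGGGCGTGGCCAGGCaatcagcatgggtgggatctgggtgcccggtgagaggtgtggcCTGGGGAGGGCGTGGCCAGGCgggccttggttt
Sgk1, chr10:21994516-21994665, plus strand: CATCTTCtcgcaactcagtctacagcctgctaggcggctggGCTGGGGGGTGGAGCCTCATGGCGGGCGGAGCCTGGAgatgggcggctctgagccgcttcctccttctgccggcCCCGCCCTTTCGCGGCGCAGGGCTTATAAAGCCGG
Ndel1, chr11:68853136-68853285, minus strand: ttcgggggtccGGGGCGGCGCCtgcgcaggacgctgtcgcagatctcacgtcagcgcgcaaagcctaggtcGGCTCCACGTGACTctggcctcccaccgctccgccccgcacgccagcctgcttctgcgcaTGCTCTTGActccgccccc

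The GC box GGGCGG, read on either strand, occurred in 5 of the 8 stretches. Ets1 held 5 such matches, of which 3 had their middle base in a footprint of both replicates, all within a single run of 30 footprinted bases. In Acacb the letters GGGCGTGGC occurred 3 times and all 3 copies lay wholly in capitals. Sgk1 had a TATAAA match in capitals just before its start, whereas the TATAAA match of Palld was only partly covered. Ndel1 carried CACGTGAC once, in capitals, and Gata4 carried it once with only part of it in capitals. Tpm1 held none of these letters although 64 of its 150 bases were footprinted in both replicates. Over all internal promoter regions, GGGCGG on either strand occurred in 45.8% of 300 bp windows, TATAAA in 4.68%, GGGCGTGGC in 2.76% and CACGTGAC in 2.14%. At the 5' ends of all protein-coding genes the same letters occurred in 67.3%, 3.90%, 4.98% and 3.50% of windows of that length. GGGCGTGGC and CACGTGAC were looked up after the sequences were seen, and a match is a description of letters and not a site.

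Of the 9840 qualifying starts, which lay in 4977 genes, 3055 were open in both replicates, which is 31% (exact 95% binomial interval 30.1 to 32.0, for counting error only). At least 1 internal promoter region was found in 29.5% of the genes with a qualifying start. Counting any peak in the window, 34.2% of internal starts had a peak in replicate 1 and 32.8% in replicate 2. The 5' ends of the same genes were open in both replicates far more often, in 68.3%, and the 5' ends of all 21938 protein-coding genes in 61.7%. Windows moved 2 kb from the internal starts were kept only where no annotated start of any transcript lay within 1 kb. Those moved upstream had a peak in both replicates in 6.42% of 8324 cases, and those moved downstream in 7.35% of 8140 cases. Openness was thus concentrated at the internal starts relative to nearby DNA away from annotated starts. The base most often under a peak lay 50 bp upstream of the internal start, where 21.6% and 21.1% of all internal starts were covered, against a highest cover of 51.8% and 51.9% around the 5' ends of the same genes. At 2 to 3 kb from the internal starts, with no position left out for nearby starts, the cover was 2.00% and 1.89%.

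**Figure D1:**
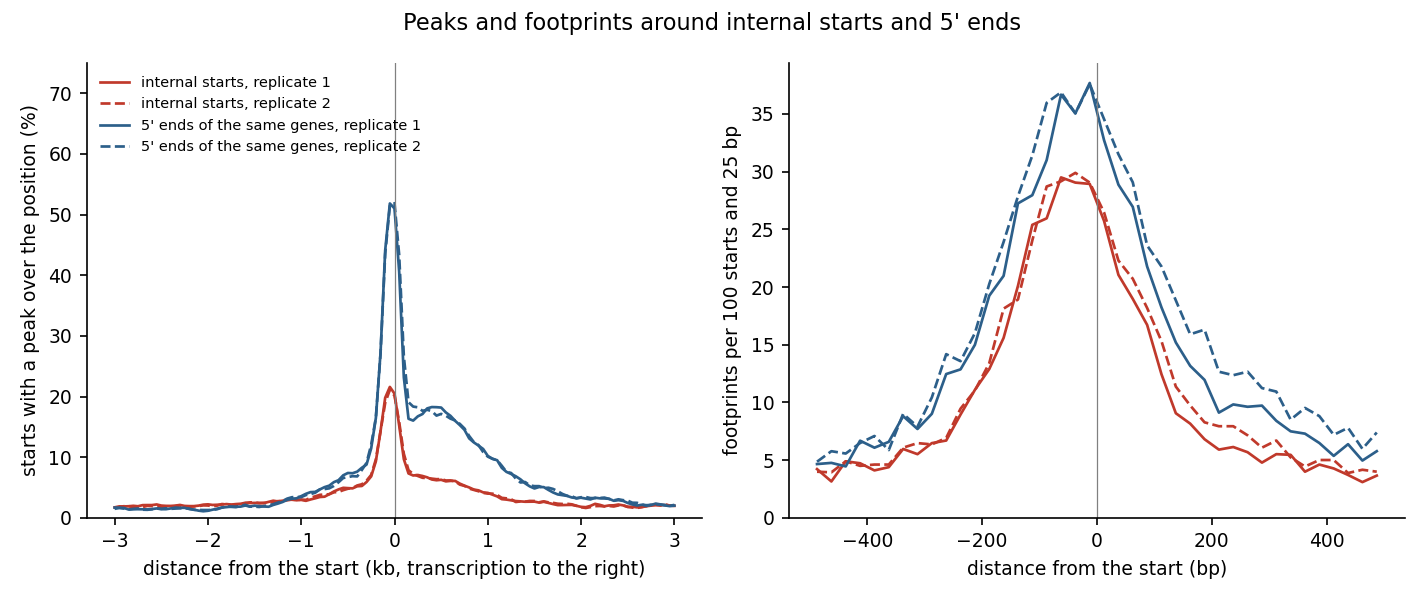
Peaks (left, percent of starts with a peak over each position) and footprints (right, footprints per 100 starts and 25 bp, at internal promoters and at the 5' ends of their genes that had a peak in each replicate) against distance from the start. Solid lines are replicate 1 and dashed lines replicate 2. Peak cover reached 21.6% at internal starts and 51.8% at 5' ends in replicate 1, and footprints lay mostly on the upstream side.

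A list of bases with a false discovery rate under 0.05 was deposited from the same reads, so it is not independent of the peaks. A listed base lay within 500 bp in both replicates for 29 of 6315 internal starts with no peak in either replicate (0.459%), for 77 of 457 with a peak in 1 replicate (16.8%) and for all 3068 with a peak in both. At a rate under 0.001 the numbers were 15, 21 and 2643.

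How well a start was annotated went with how often it was open. Starts on transcripts tagged in the annotation as having an incomplete 5' end were open in 7.79% of 3092 cases, and the others in 41.9% of 6748. Starts that fell inside an exon of a transcript from the gene's 5' end were open in 7.87% of 3759 cases, and those outside such exons in 45.6% of 6081. Starts with both a complete 5' end and a place outside those exons were open in 48.1% of 5600 cases. By transcript support level, where 1 is the best supported, the open share was 44.6% at level 1, 31.6% at level 2, 21.7% at level 3 and 25.5% at level 5. Distance from the 5' end made little difference to the open share, which was 31.1% at 5 to 10 kb, 30.6% at 10 to 20 kb, 30.9% at 20 to 50 kb, 31.7% at 50 to 100 kb and 32.0% beyond 100 kb.

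The internal promoter regions were narrow and varied widely in strength. Their median width was 240 bp, the same as that of the 5' end regions of the same genes. The median signal was 1.65 in replicate 1 and 1.43 in replicate 2, with quartiles of 0.809 and 4.27 in replicate 1 and of 0.706 and 3.80 in replicate 2. Across the 2286 regions the log2 signals of the replicates had a Pearson correlation of 0.978, a description over regions of 2 libraries. Replicate 1 was higher by a median of 0.19 on the log2 scale in these regions and by 0.31 in the other regions shared by the replicates. The median region lay 28.4 kb from the 5' end of its gene, the nearest 5.002 kb and the farthest 2857 kb, and 57.9% of regions covered the annotated start itself. No region covered the 5' end of another gene. Marker genes were counted as open with a peak in both replicates within 1 kb of a start. This held for 6 of 6 cardiomyocyte, 4 of 4 endothelial, 3 of 3 fibroblast and 2 of 2 smooth muscle genes. It also held for 1 of 2 leukocyte and 1 of 2 neuron genes, but for 0 of 2 erythroid and 0 of 2 hepatocyte genes. The neuron gene Rbfox3, with 3.67 and 2.66, was above all 6 cardiomyocyte genes in replicate 1. In replicate 2 it was above all of them but Ryr2. The leukocyte gene Spi1, with 1.45 and 1.48, was above the cardiomyocyte gene Pln in both replicates. The markers of heart cell types were thus open, but signal did not set them apart from these open genes of other cell types.

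To set each internal promoter beside the 5' end of its gene, regions whose nearest starts lay within 1 kb of each other in 1 gene were joined. This gave 1776 internal promoters, of which 1333 held a single region, and the strongest peak of each replicate was its value. An internal promoter was usually the weaker of the pair, but a sizeable minority was stronger. Both places had a peak in both replicates for 1196 internal promoters. Among these, the median signal was 1.83 and 1.54 at the internal promoter, against 4.28 and 3.96 at the 5' end. The median log2 ratio of internal over 5' end signal was -0.96 in replicate 1 and -1.01 in replicate 2, or -0.98 ± 0.03 (SD, n = 2). The internal promoter was over 2-fold stronger in both replicates in 215 cases, which is 18% of the pairs, and over 2-fold weaker in both in 562, which is 47%. The other 419 stayed within 2-fold or split between the replicates. The side of the 5' end on which the internal promoter fell was opposite in the replicates for 70 of the 1196. With 2 paired replicates an exact sign-flip permutation test cannot go below a two-sided p of 0.5, so no test was run, and the median change of the log2 ratio between the replicates was 0.28. Nearest to the 2-fold limit were Dab2ip, with log2 ratios of 1.27 and 1.00 at 1 of its internal promoters, just past it, and Trim47, with 0.999 and 1.53, just inside.

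**Figure D2:**
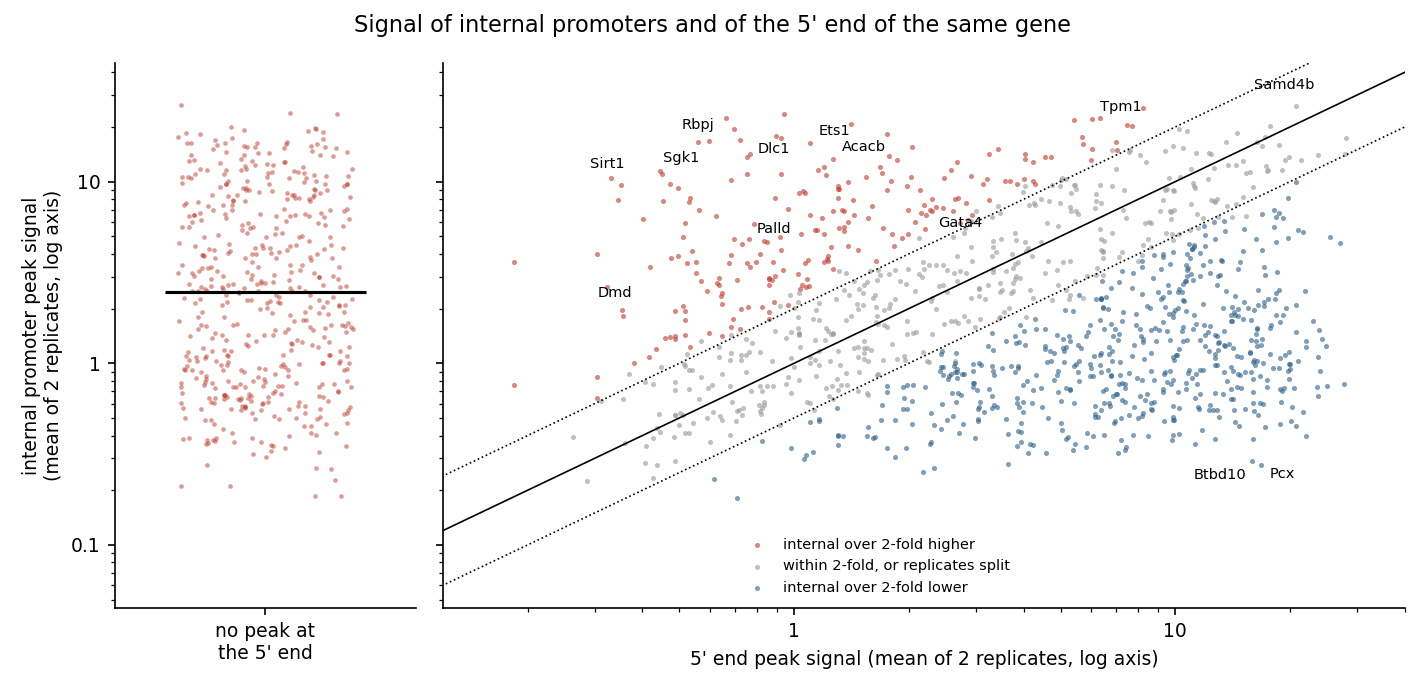
Mean peak signal of 2 replicates at each internal promoter (vertical, log axis) against that at the 5' end of its gene (horizontal, log axis), with the 499 internal promoters of genes with no 5' end peak on the left, where the bar is their median. The solid line marks equal signal and the dotted lines 2-fold. Of 1196 pairs, 215 lay over 2-fold above equality in both replicates and 562 over 2-fold below.

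In 499 cases, or 28.1% of internal promoters, no peak was found at the 5' end of the gene in either replicate. They belonged to 414 genes, and 81 more internal promoters had a 5' end peak in 1 replicate alone. The 414 genes are 28.2% of the 1467 genes with an internal promoter. Of all protein-coding genes, with or without a qualifying start, 35.1% had no 5' end peak in either replicate. Genes with a qualifying start, the nearer comparison, had a 5' end peak in 69.8% of cases in replicate 1 and 70.0% in replicate 2. The 28.2% does not stand apart from them. The 499 internal promoters were not weak, with median signals of 2.60 and 2.20. The 10 strongest included Glo1 (chr17:30612561-30612740), whose product glyoxalase I clears methylglyoxal, with a signal of 29.7 and 22.9 at 14.2 kb from the annotated 5' end. Tollip, an adaptor that restrains Toll-like receptor signalling, had 26.1 and 21.5. Stag1, a subunit of cohesin, had 27.1 and 20.3. The others were Ppp2r5a, a regulatory subunit of protein phosphatase 2A, with 21.4 and 18.4; Xrcc6, the Ku70 subunit of DNA repair, with 23.5 and 16.1; and Gpx4, which reduces lipid hydroperoxides, with 22.3 and 16.7. Dcun1d4, Dgkz, which encodes a diacylglycerol kinase, Tbc1d14 and Por, the reductase that feeds electrons to cytochromes P450, lay between 20.4 and 21.5 in replicate 1 and between 16.1 and 17.6 in replicate 2. For these genes no peak was listed at the annotated 5' end, while a start inside the gene had a signal over 20 in replicate 1. That 5' end is the outermost base of the gene record. Whether it or the internal start is the main start of the gene was not tested. Where any start within 5 kb of the 5' end and 1 kb either side was allowed to stand for the 5' end, the number without a peak was 407.

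Among pairs with both places open, Tdrd7, which encodes a Tudor-domain protein of RNA granules, had the largest log2 ratio. Its internal promoter at chr4:45972141-45972380, 6.90 kb from the 5' end, had a signal of 25.7 and 19.4, against 0.702 and 0.621 at the 5' end, a log2 ratio of 5.08 ± 0.16 (SD, n = 2). Sirt1, an NAD-dependent deacetylase, followed with 10.9 and 10.1 inside and 0.326 and 0.334 at the 5' end. Fchsd2, an endocytic membrane-shaping protein, had 20.9 and 18.3 inside and 0.837 and 0.555 at the 5' end. In these genes nearly all of the signal of the pair was at the internal start in both replicates. Ndel1, a partner of dynein, showed the same pattern, with 26.6 and 20.6 inside and 0.972 and 0.913 at the 5' end. Sgk1, a kinase induced by serum and glucocorticoids, had 18.2 and 15.2 at the start printed above and 0.617 and 0.579 at the 5' end. Zfp800, Cd47, a cell surface signal against phagocytosis, Blmh, the bleomycin hydrolase, and Tnip1, which restrains NF-κB signalling, had mean log2 ratios between 4.58 and 4.78. Tdrd7, Sirt1 and Zfp800 had a stronger peak close to their 5' end, and allowing any start within 5 kb of it brought their log2 ratios to 3.95, 4.20 and 4.51. Sirt1 and Tnip1 had no value once starts inside an exon of a 5' end transcript were left out.

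The strongest regions of all also held promoters whose gene was open at both places. Samd4b, an RNA-binding regulator, had 29.8 and 22.6 inside and 23.9 and 17.6 at the 5' end, a log2 ratio of 0.34 ± 0.03 (SD, n = 2), within 2-fold. Bicdl1, a cargo adaptor of microtubule motors, had 29.8 and 21.2 inside and 8.54 and 7.93 at the 5' end. Smarcc1, a core subunit of the BAF chromatin remodeller, had 24.7 and 20.1 inside and 6.24 and 6.43 at the 5' end. Both were over 2-fold stronger inside. Mapre2, which binds microtubule ends, had 25.6 and 18.0 inside and 5.83 and 5.00 at the 5' end. At the other extreme lay regions far below an active 5' end. A region of Gas2, a cytoskeletal protein of growth-arrested cells, had 0.262 and 0.209, against 18.0 and 14.2 at the 5' end, a log2 ratio of -6.10 ± 0.01 (SD, n = 2). Pcx, which encodes pyruvate carboxylase, had 0.305 and 0.245 inside and 19.3 and 14.3 at the 5' end. Tmcc1, Btbd10 and Heatr5b had regions with mean log2 ratios of -5.79, -5.76 and -5.66. These peaks were near the lowest signals in the lists, and those of Gas2 and Heatr5b named here held no footprint in either replicate.

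Genes of the contractile apparatus and its cytoskeleton carried internal promoters in 23 of the 35 listed genes with a qualifying start (65.7%), beside 29.5% of all genes with a qualifying start. Listed genes had a median of 3 qualifying starts and all qualifying genes a median of 1. Over all qualifying genes, the share with a region was 15.3% with 1 start, 40.2% with 2 to 3 and 70.3% with 4 to 7. These shares bear in the same way on the lists below. The list's 45 internal promoters had median signals of 2.17 and 1.80. Of the 36 with a 5' end peak in both replicates, 4 were over 2-fold stronger and 8 over 2-fold weaker than it. Tpm1 and Tpm3 encode tropomyosins, the coiled coils that gate actin for myosin. At Tpm1, the strongest of the list (chr9:67043881-67044100, 5.44 kb inside) the signal was 23.4 and 20.96, against 6.57 and 5.53 at the 5' end, a log2 ratio of 1.88 ± 0.07 (SD, n = 2). The internal start of Tpm3 had 9.98 and 8.36, with no 5' end peak. Lmna, for lamins A and C of the nuclear envelope, had 2 internal promoters, the stronger with 15.7 and 14.0, against 11.1 and 7.69 at the 5' end, which is within 2-fold. Plec and Macf1 encode giant linkers of the cytoskeleton. Macf1 had 9.52 and 9.90 at an internal promoter 272 kb from a 5' end without a peak. Ablim1, an actin-binding LIM protein, had 7.07 and 7.48 inside and 2.28 and 2.43 at the 5' end.

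Several other muscle genes were described after their values were seen. Dmd, for dystrophin, was open at chrX:85048181-85048420, 2100 kb from its 5' end, the position of the promoter of its short product Dp71. Its signal there was 2.24 and 1.69, against 0.326 and 0.382 at the 5' end, a log2 ratio of 2.46 ± 0.45 (SD, n = 2). Palld, for the actin-bundling palladin, had 5.63 and 3.99 at its internal promoter 312 kb inside and 0.660 and 0.859 at the 5' end. Slc8a1, the cardiac sodium-calcium exchanger, had 2.57 and 3.86 inside and 1.80 and 0.818 at the 5' end, so that the replicates differed widely in its log2 ratio, 1.38 ± 1.22 (SD, n = 2), and it was past 2-fold in replicate 2 alone. Speg, a kinase of striated muscle, had 3.53 and 2.67 inside and 1.87 and 1.68 at the 5' end, within 2-fold. Ttn, the titin gene, had 11 qualifying starts and none with a region, while its 5' end had 2.79 and 2.14. Ryr2 and Actn2, for the ryanodine receptor and α-actinin, likewise had qualifying starts without a region.

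**Figure D3:**
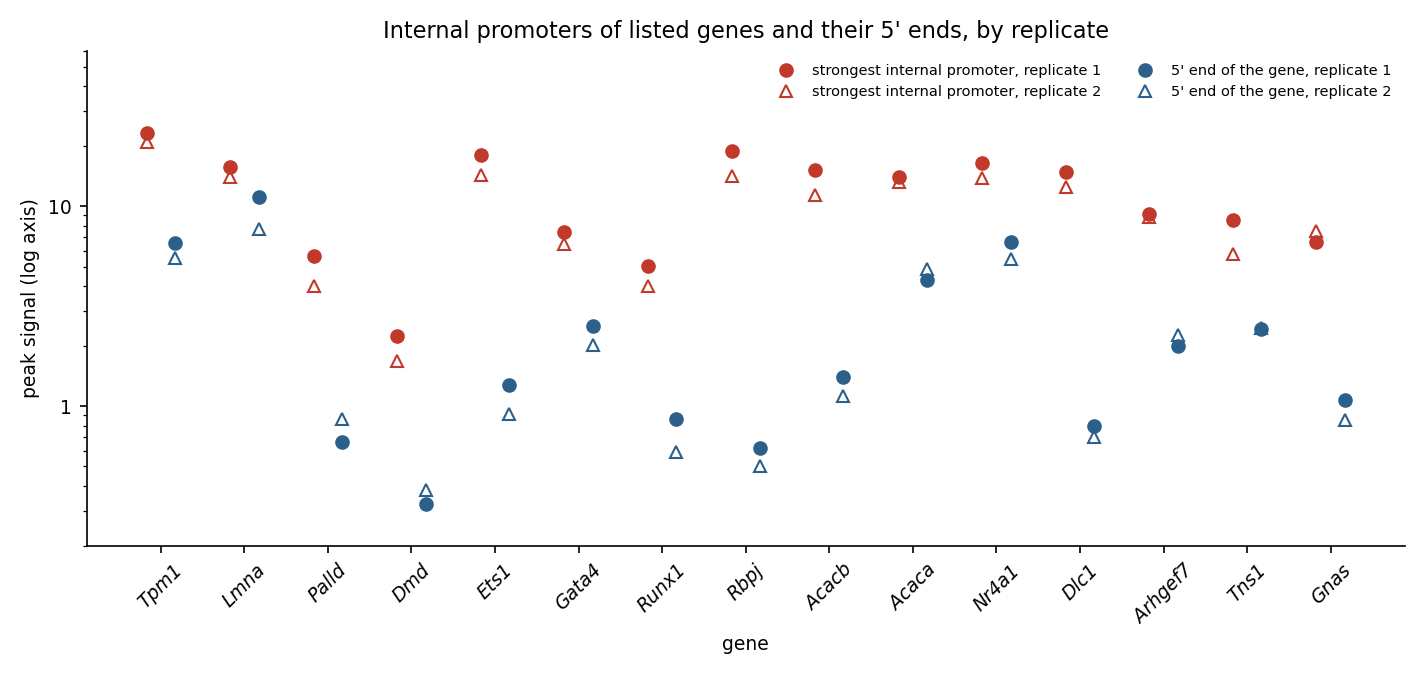
Peak signal (log axis) of the strongest internal promoter (red, left of each pair) and of the 5' end (blue, right) of 15 genes from the lists, with filled circles for replicate 1 and open triangles for replicate 2. The internal promoter lay above the 5' end in both replicates in each gene shown. The genes were picked from those open at both places after their values were seen.

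Of the heart and vessel transcription factors, 16 of 23 with a qualifying start had an internal promoter (69.6%), beside 29.5% of all qualifying genes. The listed genes had a median of 3 qualifying starts, against 1 in all qualifying genes. Their 28 internal promoters had median signals of 1.57 and 1.21. Of the 19 with a 5' end peak in both replicates, 5 were over 2-fold stronger and 10 over 2-fold weaker, beside 18% and 47% of all pairs. Rbpj, the DNA-binding partner of Notch, led with 18.9 and 14.2 at a start 124 kb inside, against 0.617 and 0.501 at the 5' end, a log2 ratio of 4.88 ± 0.08 (SD, n = 2). Ets1, a factor of endothelial and blood cells, had 18.1 and 14.4 inside (chr9:32695861-32696120) and 1.28 and 0.919 at the 5' end. Gata4, a cardiac zinc-finger factor, had 7.43 and 6.51 inside (chr14:63245181-63245480) and 2.52 and 2.02 at the 5' end. All 3 were over 2-fold stronger inside in both replicates. Runx1, a blood and vessel factor with a distal and a proximal promoter, had 5.02 and 4.01 at the internal promoter 129 kb inside and 0.865 and 0.591 at the 5' end. Mef2c, a muscle factor, had no 5' end peak, and the strongest of its 4 internal promoters, 20.8 kb inside, had 4.98 and 5.48. Tcf4, a partner of tissue-specific helix-loop-helix factors, had 5 internal promoters and no 5' end peak. The one 250 kb inside had 9.82 and 8.19, and the other 4 lay between 1.14 and 1.96 in replicate 1. Tead1, the factor that reads Hippo signalling, was picked after its values were seen as an example of the weaker ones. It had 0.986 and 0.836 inside and 15.2 and 13.1 at the 5' end.

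Nuclear receptors and enzymes of energy metabolism had internal promoters in 17 of 27 genes with a qualifying start (63.0%), beside 29.5% of all and with a median of 2 qualifying starts. Their median signals, 2.81 and 2.59, were the highest of the 6 lists. Both acetyl-CoA carboxylases, which make malonyl-CoA, were strong inside. Acacb, the form that controls fatty acid entry into mitochondria in muscle, had 15.2 and 11.5 at chr5:114175681-114175940, 29.4 kb inside, and 1.40 and 1.13 at the 5' end, a log2 ratio of 3.39 ± 0.07 (SD, n = 2). The 3 footprinted copies of GGGCGTGGC shown above lie in this region. Acaca had 14.0 and 13.2 inside and 4.28 and 4.84 at the 5' end. Nr4a1, an immediate-early orphan receptor, had 16.4 and 13.8 inside and 6.62 and 5.46 at the 5' end. Nr3c1, the glucocorticoid receptor, had 14.4 and 9.58 at its stronger internal promoter and 0.270 in replicate 1 alone at the 5' end. Lpin1, a phosphatidate phosphatase, had 11.04 and 8.57 with no 5' end peak, and Rara, the retinoic acid receptor α, had 8.23 and 7.71, with 0.251 at the 5' end in replicate 2 alone. Of the 11 internal promoters of this list with a 5' end peak in both replicates, 5 were over 2-fold stronger and 2 over 2-fold weaker, beside 18% and 47% of all pairs. Acsl1, which activates long-chain fatty acids and was picked after its values were seen, was an example of the weaker ones, with 1.67 and 1.40 inside and 18.7 and 14.1 at the 5' end.

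Signalling proteins listed for their several known promoters had a region in 29 of 35 genes with a qualifying start (82.9%), beside 29.5% of all. That list was composed of genes known for this property, with a median of 4 qualifying starts. Its 57 internal promoters had median signals of 1.56 and 1.28, and of the 44 with a 5' end peak in both replicates 13 were over 2-fold stronger and 15 over 2-fold weaker, beside 18% and 47% of all pairs. Dlc1, a tumour suppressor that acts at focal adhesions, had 14.9 and 12.5 at a start 339 kb inside and 0.801 and 0.704 at the 5' end. Its log2 ratio was 4.18, or 2.09 when any start within 5 kb of the 5' end could stand for it. Arhgef7, an exchange factor for Rac, had 9.18 and 8.86 inside and 1.99 and 2.28 at the 5' end. Fgfr2, a growth factor receptor, had 6.79 and 6.33 inside, against 2.92 and 2.93 at an annotated 5' end 2857 kb away, the farthest of all, and allowing any start near that end brought its log2 ratio of 1.16 to 0.10. Fgfr1 had 7.33 and 5.64 inside, with no 5' end peak. Tns1, a focal adhesion protein, had 5 internal promoters, and the farthest, 161 kb inside, was the strongest with 8.51 and 5.76, against 2.45 and 2.46 at the 5' end.

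Neuronal genes had a region in 13 of 20 genes with a qualifying start (65.0%), beside 29.5% of all and with a median of 3.5 qualifying starts against 1. Their median signals, 0.869 and 0.901, were the lowest of the 6 lists. Dlg4, a postsynaptic scaffold, had 4.43 and 3.13 with no 5' end peak. Elavl2, a neuronal RNA-binding protein, had 4.43 and 2.82 inside and 0.177 and 0.191 at the 5' end. Auts2 was weaker inside, with 4.17 and 3.74, against 8.95 and 8.65 at the 5' end. Blood and epithelial genes had a region in 7 of 16 (43.8%), with a median of 2 qualifying starts, among them Cbfa2t3, a corepressor of blood cells, with 6.18 and 7.55 inside and 1.53 and 0.991 at the 5' end. The B-cell factor Pax5 had 5.45 and 5.13 inside and a 5' end peak of 0.333 in replicate 1 alone, and the eye and brain factor Pax6 had 1.62 and 1.36 with none. Whether minor cell types of the tissue gave these peaks was not tested.

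Most genes with an internal promoter had 1, namely 1236 of 1467, while 179 had 2, 35 had 3 and 17 had 4 or more. Plec and Pde4d had the most regions, 8 each, and Rreb1, Arap1 and Dab2ip had 7 each. In Plec the internal promoters lay between 24.3 and 36.9 kb from the 5' end, which had 6.54 and 6.22. The strongest of the 5, at 33.2 kb, had 7.93 and 7.35, and the weakest, at 24.3 kb, had 1.12 and 0.662. Plec transcripts from different first exons place the protein on different cell structures. Pde4d, which degrades cyclic AMP and whose isoforms differ in their first exons, had 7 internal promoters spread from 667 to 1477 kb. Its strongest, at 811 kb, had 2.08 and 1.80, against 0.489 and 0.483 at the 5' end, and 3 of the 7 were over 2-fold stronger than the 5' end in both replicates. The log2 ratio of the strongest internal promoter of Pde4d was 1.99. It was 1.51 when starts tagged as incomplete were left out and 1.48 with support level 1 only. Gnas makes several products, among them the stimulatory G protein α subunit, from promoters in an imprinted locus. Its internal promoters at 13.5, 43.4 and 45.7 kb had 1.04 and 0.645, 2.15 and 2.05, and 6.65 and 7.51, against 1.07 and 0.853 at the 5' end. Rreb1, a zinc-finger factor downstream of Ras, had 13.7 and 10.5 at its strongest internal promoter and 1.14 and 1.26 at the 5' end. The strongest internal promoter of Arap1, a regulator of membrane traffic, had 4.19 and 3.60, against 2.21 and 3.13 at the 5' end, within 2-fold. All 5 internal promoters of Dab2ip, a Ras GTPase-activating protein, were over 2-fold stronger than its 5' end.

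**Figure D4:**
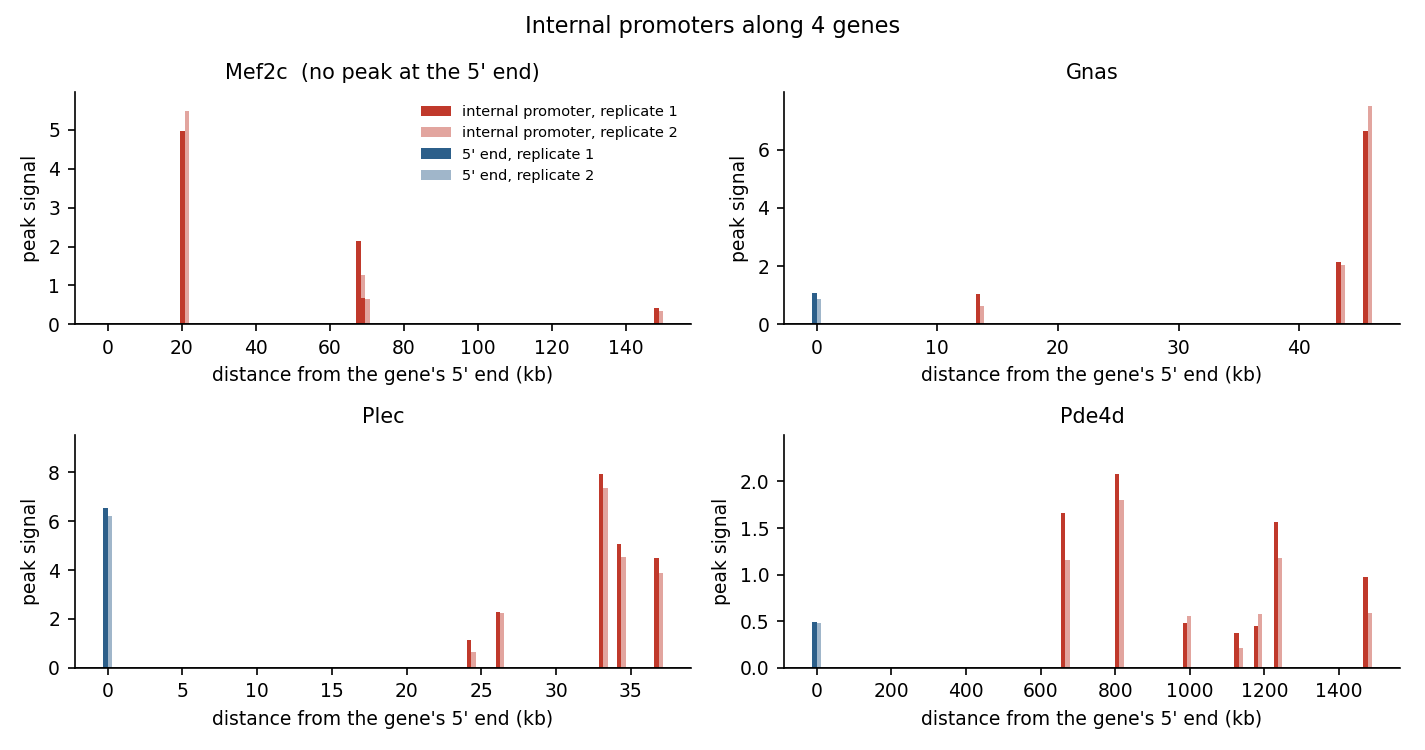
Peak signal of each internal promoter (red) and of the 5' end (blue) of 4 genes against distance from the gene's 5' end in kb, with dark bars for replicate 1 and pale bars for replicate 2. Mef2c had no 5' end peak, Gnas and Pde4d were strongest inside, and Plec was open at both places.

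Internal promoter regions were divided at fixed limits into CpG-rich and CpG-poor classes, which differed in signal and in their ratio to the 5' end. The classes also differed in other measures, such as the share with a footprint in each replicate, 89.4% and 81.4%. The share with the same start codon as a 5' end transcript was close, 31.9% and 29.8%. CpG-rich regions had, in 300 bp at their centre, at least 50% GC and at least 0.6 times the CpGs that their base composition predicts. This held for 40.9% of internal promoter regions, against 73.1% of the 5' end regions of the same genes and 3.39% of shared regions over 1 kb from any annotated start. The 934 CpG-rich regions had median signals of 3.85 and 3.76, and the 1352 CpG-poor regions 1.18 and 0.985. The annotated start was covered by 69.4% of the CpG-rich and 49.9% of the CpG-poor regions. Set beside the 5' end, the 421 CpG-rich internal promoters with a 5' end peak had median log2 ratios of 0.47 and 0.46, and 150 of them (35.6%) were over 2-fold stronger. The 775 CpG-poor ones had medians of -1.67 and -1.86, and 65 of them (8.39%) were over 2-fold stronger while 468 (60.4%) were over 2-fold weaker. Genes without a 5' end peak held 36.4% of the CpG-rich and 23.4% of the CpG-poor regions. CpG content and signal move together in these data, and which of them goes with the other differences was not tested.

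**Figure D5:**
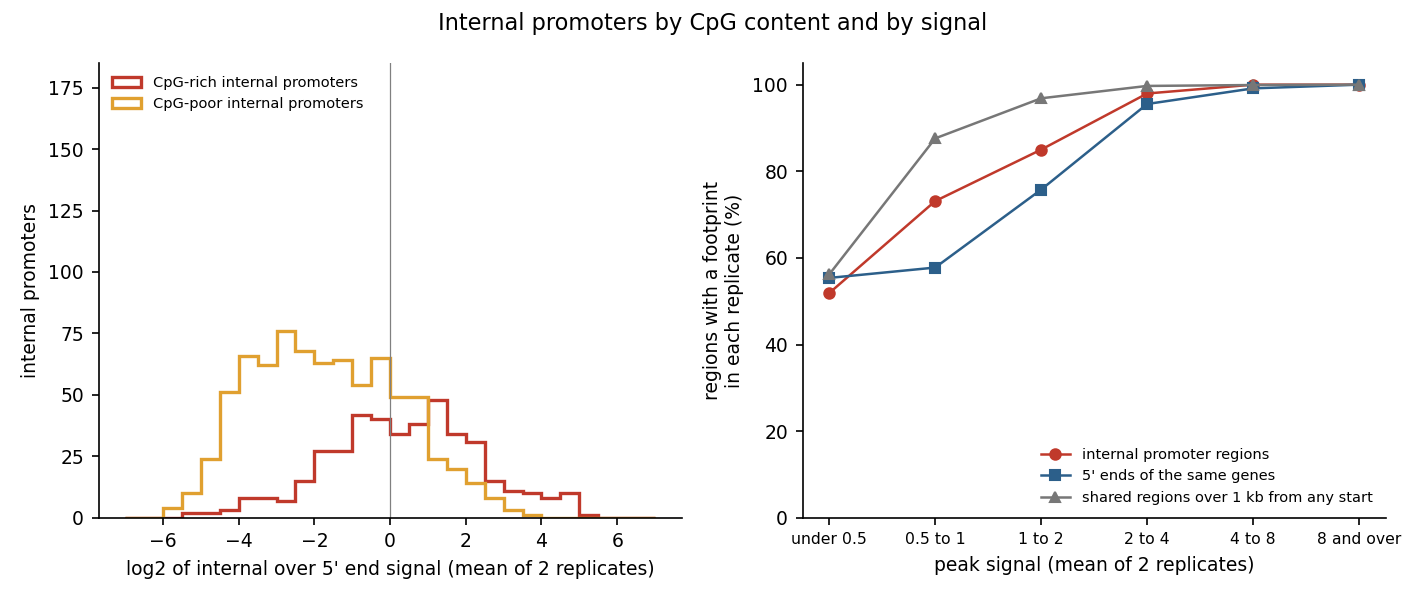
Left, number of internal promoters by mean log2 ratio of internal over 5' end signal, for CpG-rich and CpG-poor ones. Right, percent of regions with a footprint in each replicate by classes of mean signal, for internal promoter regions, 5' ends of the same genes and shared regions over 1 kb from any start. The CpG-rich outline lies to the right of the CpG-poor one, and the footprint share rises with signal in all 3 sets.

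Distance from the 5' end went with strength though not with the open share. Internal promoters 5 to 10 kb inside had median signals of 2.63 and 2.19, those 20 to 50 kb inside 2.18 and 1.76, and those over 100 kb inside 1.34 and 1.10. The CpG-rich share was 47.0% at 5 to 10 kb and 29.2% beyond 100 kb. Genes with no 5' end peak accounted for 38.6% of internal promoters at 5 to 10 kb and 17.5% beyond 100 kb. The 74 regions on the X chromosome, of which male cells have a single copy, had median signals of 1.03 and 0.919, against 1.66 and 1.44 on the autosomes.

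A footprint was present in each replicate in 84.6% of internal promoter regions (1935 of 2286, exact 95% binomial interval 83.1 to 86.1), beside 84.1% of all shared regions. The share was 86.2% at the 5' ends of the same genes. Internal promoter regions held 11.4 and 11.9 footprints per kb, against 12.7 and 13.5 per kb at the 5' ends. The share rose with peak signal, being 51.9% under 0.5, 73.1% at 0.5 to 1, 85.0% at 1 to 2 and 98.0% at 2 to 4, and above 4 all internal promoter regions had footprints in each replicate. At signals of 1 to 2 the 5' ends of the same genes reached 75.8% and distal shared regions 96.9%. Internal promoters thus lay between 5' ends and distal regions of like signal there, while under 0.5 their share was below those of both, 55.4% and 56.2%. Footprints were placed mainly upstream. In the 150 bp upstream of the internal start there were 159 and 160 footprints per 100 internal promoters, and in the 150 bp downstream 104 and 114. The 25 bp with the most footprints began 75 bp upstream of the internal start in replicate 1 and 50 bp upstream in replicate 2, and directly before the start at the 5' ends in both.

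Taken over both CpG classes, the letters of the internal promoters were intermediate between those of 5' ends and of distal regions. The GC box GGGCGG, bound by SP and KLF factors, occurred in 45.8% of internal promoter windows of 300 bp, 67.5% of windows at the 5' ends of the same genes and 11.5% of distal windows. The ETS core CCGGAA occurred in 14.4%, 19.1% and 5.96%. Motifs common in distal regions showed the opposite order. AGATAA, the GATA motif, occurred in 6.69%, 3.68% and 13.3%, TGANTCA, the AP-1 motif, in 7.83%, 4.59% and 12.3%, and CATTCC, the TEAD motif, in 12.6%, 10.6% and 19.0%. Both strands were read for each. CCAAT, read by NFY, was about as common in all 3, with 27.8%, 29.6% and 31.1%. GGGCGG was found in 75.9% of CpG-rich and 25% of CpG-poor internal promoter regions, against 80.4% and 32.5% of the 5' end regions of the same genes. The letters GGGCGG hold a CpG and no A or T, so their share is tied to how the classes were drawn. Within the classes the order against these 5' ends was not kept by every motif. CATTCC had 7.07% and 16.3%, against 7.85% and 17.9% at the 5' ends. AGATAA had 3.10% and 9.17%, against 1.57% and 9.40%. CCGGAA had 21.3% and 9.62%, against 20.8% and 14.2%. TGANTCA kept its order in both, with 4.18% and 10.4%, against 2.72% and 9.69%.

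Footprints covered some motifs far more than others. Bases inside a footprint in both replicates made up 9.86% of internal promoter regions. Of 16 matches to the NRF1 motif 16 had their middle base in such a footprint, and of 65 matches to the core CTCF motif 47 did (72.3%). The shares were 32.2% of 2343 GGGCGG matches, 21.1% of CCGGAA matches and 14.4% of CCAAT matches. For TGANTCA it was 3.93% and for AGATAA 1.56% (2 of 128), below the share of all bases. At the 5' ends of the same genes, where 13.2% of bases were footprinted, the shares were 18 of 18 for NRF1, 68.1% for CTCF, 33.0% for GGGCGG, 25.5% for CCGGAA, 20% for CCAAT, 1.45% for TGANTCA and 6.82% for AGATAA. These are counts of letters under footprints, and no factor's binding was measured.

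By the annotation, internal promoters differ in where translation of their transcripts begins. The transcript at 701 regions (30.7%) begins translation at the same codon as a transcript from the gene's 5' end. At 759 regions (33.2%) it uses a start codon of its own outside the coding exons of the 5' end transcripts, as at Tpm1, Dmd, Acacb and Sgk1. At 303 regions (13.3%), among them Palld, Acaca and Bicdl1, the start codon lies inside those coding exons. In 319 regions (14.0%), Ets1 and Pde4d among them, no coding transcript starts at the gene's 5' end, and in 204 (8.92%) the start codon is not annotated. Median signals were 1.71 and 1.52 for the same codon, 1.78 and 1.59 for an own codon and 1.53 and 1.37 for a codon inside the coding exons. The class without a coding transcript at the 5' end had the highest medians, 2.35 and 1.87, and median log2 ratios nearest to 0, -0.34 and -0.15. The regions with no annotated start codon were the weakest, with 1.12 and 0.886, and had median log2 ratios of -2.50 and -2.68.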

How the data were processed

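DNase-seq peaks, footprints and false discovery rates of 2 heart replicates were deposited in mm10 coordinates. The sets were called separately for each replicate, with no pooling, according to the labels and the submitters' processing notes. Peak height, the deposited signal, had been normalised to read depth by the authors. How exactly, the caller used, read totals and the handling of CAST reads were not given in the sources used here. Depth per sample is therefore unknown. The deposited FDR values, q-values for runs of bases, list only runs under 0.05. Footprints were used as positions only, since the other deposited footprint column, a score, holds 0.01 throughout.

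The larger peak set of each replicate was used. Peaks of both replicates that overlapped or touched were merged. A gene's 5' end is the outermost base of its GENCODE M21 record, and its value is the highest peak within 500 bp. A 2-fold call had to hold in both replicates. A footprint counted where its middle base lay in the region. A start codon counted as shared if a transcript beginning within 500 bp of the 5' end uses it. Sequences came from RefSeq GRCm38, whose chromosome lengths match mm10. Values are descriptions without a test, since 2 paired replicates allow no two-sided exact p below 0.5. Exact 95% intervals cover counting error only.

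The members and gene lists were chosen with earlier results of these data known. The text names the 10 strongest regions, the 10 largest and 5 lowest log2 ratios, the 10 strongest without a 5' end peak, the 5 genes with most regions and up to 6 leaders of each list. Joining regions into internal promoters was decided after the data were seen. Selection and motif search were tested on simulated data, where 100% of 218 planted internal promoters were classed as planted. Python 3.11.15, pandas 2.3.3, pysam 0.24.0 and samtools 1.23.1 were used. Alternatives are given in the closing section.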

Additional observations from a re-analysis of the deposited data

How the results depend on the processing

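The median log2 ratio of internal over 5' end signal was below 0 under every alternative tried, and no recomputed value changed sign. It was -0.70 in the smaller peak set, -1.16 with 1000 bp windows, -0.74 without starts tagged as incomplete, -0.31 with support level 1 only, -0.71 in the upper 50% of peaks and -0.71 for starts outside the exons of 5' end transcripts, an alternative chosen after seeing the data. Using 1 replicate alone it lay between -1.15 and -0.98. The open share of internal starts, 31.0% as reported, was 26.2% in the smaller set, 27.9% and 35.1% with 250 and 1000 bp windows, 41.7% without incomplete starts, 44.4% with support level 1 only, 24.1% in the upper 50% of peaks, 45.4% outside those exons, and 32.8% to 34.2% with 1 replicate. Support level 1 left 1438 regions and 248 internal promoters over 2-fold weaker. The smaller set left 373 weaker ones, and the upper 50% of peaks left 332 weaker and 137 stronger ones. The footprint share was 90.5% in the smaller set, 87.7% with 250 bp windows, 92.4% in the upper 50% of peaks, and 84.1% to 86.9% with 1 replicate. With 1 replicate, regions numbered 2591 to 2744, stronger internal promoters 272 to 273, weaker ones 654 to 740, and those without a 5' end peak 562 to 603. Counting every region with its own peak, also chosen after seeing the data, gave 247 stronger and 736 weaker. Of 86 recomputed summary values 25 moved beyond the spread of the replicates or, for counts, by over 1.5 times. Some alternatives drop pairs with a weak 5' end peak. Of the 10 largest log2 ratios 8 had no value in the smaller set (all but Sgk1 and Ndel1) and 9 had none in the upper 50% of peaks (all but Ndel1), so these alternatives say nothing of those genes. Peak signals near the lowest listed values limit the weak internal promoters, and the unknown depth allows no floor for closed starts.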
